A study of Naumovozyma castellii with 10 samples.

Results

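The 200 mRNAs described here are protein-coding genes of the budding yeast Naumovozyma castellii. None has an annotated mRNA, or a long non-coding RNA of the classes XUT, CUT or SUT, on its opposite strand. Their small RNAs were denser after cycloheximide than after loss of UPF1. The genes were taken from 5592 mRNAs of chromosomes 1 to 10. Other annotated types on the opposite strand were not checked. An mRNA was kept if no mRNA, XUT, CUT or SUT overlapped its interval on the opposite strand, which left 4290. Of these, 2733 had no convergent mRNA neighbour within 200 nt and 2637 of those also lay more than 20 kb from the chromosome ends. The 200 densest in the libraries without Dicer were set aside, and 1122 of the remaining 2437 had a mean density of at least 0.02 in cycloheximide-treated wild type. These 1122 are called eligible below. The members were chosen by the measured densities of WT CHX and upf1, as the 200 of them (17.8%) with the highest log2 ratio of cycloheximide-treated wild type over upf1, with 0.0015 added to both densities. A gene symbol was available for 171 members.

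The study sequenced RNA shorter than 80 nt in 10 libraries, in 5 groups of 2 described by the labels as biological replicates. All strains were MATalpha ura3-1 ho, and each genotype was represented by 1 strain grown in YPD at 25 °C to an OD600 of 0.5. The groups were a dcr1 strain with cycloheximide (dcr1 CHX), an untreated dcr1 upf1::kanMX6 strain (dcr1 upf1), the parent strain with cycloheximide (WT CHX), an untreated upf1::kanMX6 strain (upf1) and the untreated parent strain (WT). Treated cells had cycloheximide at 100 µg/mL in the medium for 15 min. Values are densities, which are reads per nucleotide of the feature scaled by the authors to a Schizosaccharomyces pombe spike-in, and mRNA intervals are coding lengths in nearly all cases.

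Unlike baker's yeast, N. castellii has kept RNA interference, in which Dicer cuts double-stranded RNA into small interfering RNAs that Argonaute carries. Double-stranded RNA needs complementary strands, and the genes described here have no annotated mRNA, XUT, CUT or SUT antisense to their intervals. Upf1 is the helicase of nonsense-mediated decay, a pathway that removes translated RNAs with early stop codons. Cycloheximide stops translation elongation, which also stops this pathway, and it blocks all other protein synthesis as well. Gene roles given below are those known in Saccharomyces cerevisiae.

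The libraries held 3169072 and 4323102 reads on annotated features in WT CHX, 6237106 and 6904640 in upf1, and 4144522 and 3389205 in WT. The Dicer-deficient libraries were far smaller, with 129559 to 148330 reads. On log2 densities, the Pearson correlation of the 2 replicates of a group was 0.902 to 0.967, over features that share their library. NAM7, the N. castellii name for UPF1 in the gene table, had 0 reads in all 4 upf1 and dcr1 upf1 libraries and 3 to 45 reads in the others. DCR1 is not named in that table, so its loss was not checked at the locus.

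The members stood out by a low density in upf1 rather than by a high one in WT CHX. Their median density was 0.0415 in WT CHX and 0.00664 in upf1, while that of the other 922 eligible mRNAs was 0.0453 in WT CHX and 0.0395 in upf1. In untreated WT the median member had 0.00454 and the median of the other eligible mRNAs was 0.0112. WT CHX and upf1 chose the members, so these values describe the choice and were not tested.

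**Figure D1:**
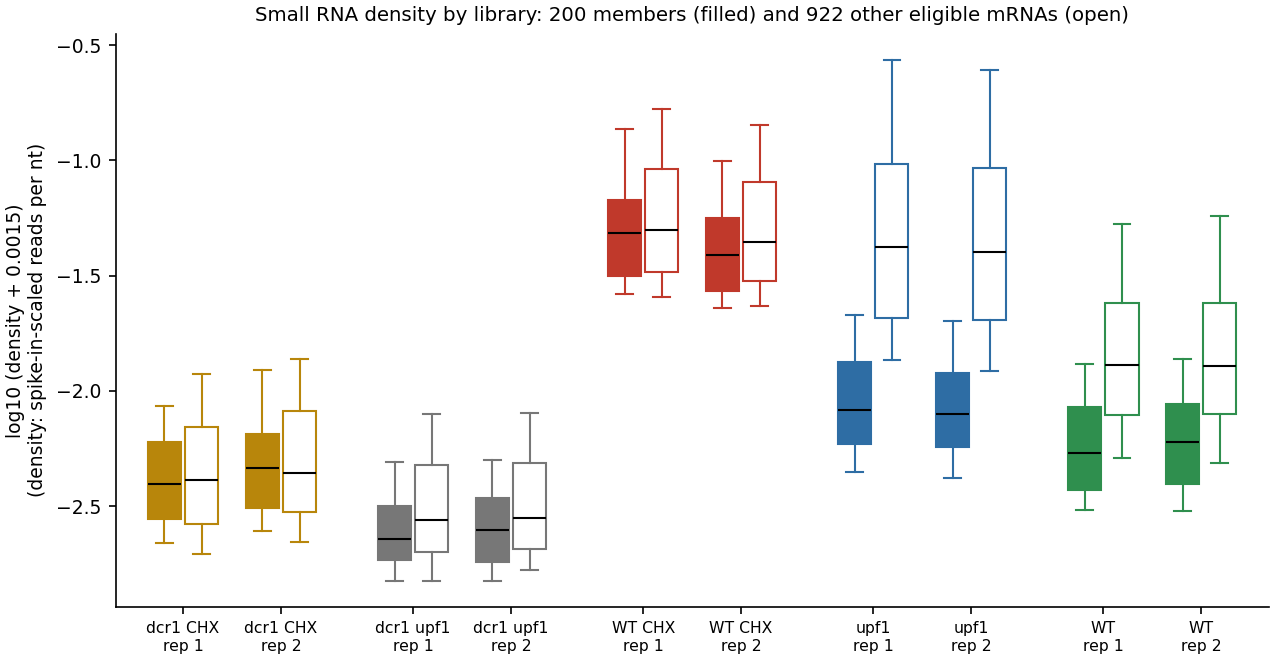
Small RNA density of the 200 members (filled boxes) and the other 922 eligible mRNAs (open boxes) in each of the 10 libraries, as log10 of density plus 0.0015; boxes span the quartiles with the median as a line, and whiskers run from the tenth to the ninetieth percentile. The open and filled boxes lie nearly level in dcr1 CHX and WT CHX, and the filled boxes lie lower in dcr1 upf1, upf1 and WT.

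Summed over the 200 members, density was 11.8 ± 1.56 in WT CHX, 1.94 ± 0.113 in upf1 and 1.13 ± 0.00342 in WT (SD, n = 2 each). The WT CHX sum was 6.10 times that of upf1, with 5.32 to 6.96 over the replicate pairs, and 10.4 times that of WT. For the other eligible mRNAs the WT CHX sum was 0.551 times that of upf1, but the median densities gave a ratio of 1.15 and WT CHX was above upf1 in 578 of the 922, so the sum alone ran the other way. The 5 densest members held 14.3% of the WT CHX sum. The members took 20912 and 26953 reads in WT CHX, which was 0.660% and 0.623% of each library. In upf1 they took 4275 and 4540 reads and in WT 3724 and 3172. Bulk samples were sequenced, and fewer cells with small RNAs of a gene cannot be told apart from less small RNA per cell.

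The log2 ratio that ranked the genes ran from 1.74 to 6.82 with a median of 2.25, against 0.69 over all eligible mRNAs. It was at least 2 in 142 members and at least 3 in 29. At the threshold there was no gap in the values. The last genes inside were SCH9, a nutrient-responsive kinase (WT CHX 0.0247 and upf1 0.00635), and GEA2, an exchange factor for Arf GTPases (0.0223 and 0.00564), both at 1.74. The first genes outside were CSR1, a phosphatidylinositol transfer protein (0.0468 and 0.0131), and the histone H4 gene HHF1 (0.0348 and 0.00945), both at 1.73. At the density floor, 10 members lay within 10% above 0.02.

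When the rule was applied to replicate 1 alone, 165 of its 200 genes were members. In the replicate 2 libraries all 200 had a positive log2 ratio, with a median of 2.14. Of the 961 mRNAs not ranked among those 200, 578 were positive there, with a median of 0.29. Applied to replicate 2 alone, the rule gave 164 members. In replicate 1, 196 of its 200 genes had a positive ratio, with a median of 2.19, and so had 530 of the 865 others, with a median of 0.37. The rule was set with results of both replicates known, so these values describe how alike the replicates were and do not test the members. The lowest value among the 4 exceptions was -3.25.

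The steepest member was NCAS_0E02010 (chromosome 5, 383535 to 384419, minus strand), a gene without a symbol. It had 180 reads in each WT CHX library, none in either upf1 library, and 3 and 1 in WT. Its density in WT CHX was at least 138-fold higher than in upf1, with a floor of 3 reads taken over the 2 upf1 libraries. Without Dicer it had 9 and 8 reads in dcr1 CHX and 1 and 3 in dcr1 upf1. The other steep gene without a symbol was NCAS_0J01440 (chromosome 10, 256038 to 256850, plus strand), with densities of 0.0381 and 0.0400 in WT CHX, 0.00279 and 0.000836 in upf1, and 0.00358 and 0.00211 in WT.

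Genes of ribosome assembly were among the steepest members. A list of ribosome biogenesis genes held 5 of the 8 steepest members and 7 of the 20 steepest, by the ratio of the rule. It held 19 of all 200 members (9.5%) and 33 of the 1122 eligible mRNAs. The list was chosen with earlier results of these data known, and these counts were not tested. TSR1 (chromosome 10, 257592 to 259982, minus strand), a factor for maturation of the small ribosomal subunit, had densities of 0.171 and 0.156 in WT CHX, 0.00506 and 0.00654 in upf1, and 0.00406 and 0.00621 in WT. The mean of WT CHX was 28.2 times that of upf1, while upf1 and WT overlapped. NSA2 (chromosome 2, 828416 to 829201, minus strand), needed to assemble the large subunit, had 0.237 and 0.231 in WT CHX, 0.0125 and 0.00865 in upf1, and 0.00493 and 0.00654 in WT, so all 3 groups were apart. Beside it on the plus strand, 256 nt away, lies LCP5 (829458 to 830531), of the small subunit processome, the particle that folds and cuts the early small subunit RNA. LCP5 had 0.163 and 0.134 in WT CHX, 0.00493 and 0.0101 in upf1, and 0.00677 and 0.0138 in WT, with upf1 and WT overlapping.

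MPP10 and IMP4, partners in the U3 particle of that processome, were sparser and also highest in WT CHX. MPP10 (chromosome 4, 543029 to 544813, minus strand) had 0.0415 and 0.0401 in WT CHX, 0.00339 and 0 in upf1, and 0.000272 and 0.00224 in WT. IMP4 (chromosome 7, 526633 to 527493, plus strand) had 0.0476 and 0.0393 in WT CHX, 0.00264 and 0.00158 in upf1, and 0.00169 and 0.000664 in WT. In both genes the upf1 and WT values overlapped at levels well under those of WT CHX.

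In all, 19 of the 33 eligible ribosome biogenesis mRNAs were members (57.6%), against 17.8% of all eligible mRNAs. They served several stages. LCP5, MPP10, IMP4, DIP2, UTP21, UTP9, NOP14, HCA4 and ESF2 act in early small subunit assembly. NSA2, ERB1, NOG2, PUF6, LSG1, RPF1 and the rRNA methyltransferase RRP8 act on the large subunit. TSR1 and NOB1, the nuclease of the final small subunit cut, act late, and GAR1 is a core protein of the snoRNPs that make pseudouridine. Their log2 ratios ran from 1.77 in RPF1 to 4.50 in TSR1. The other 14 eligible genes of the list were not members, and WT CHX was above upf1 in all 14, as it was in 578 of all 922 eligible mRNAs that were not members. Their ratios, which the rule used, ran from 0.24 in the nucleolin-like NSR1 to 1.67 in the helicase gene DBP8.

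**Figure D2:**
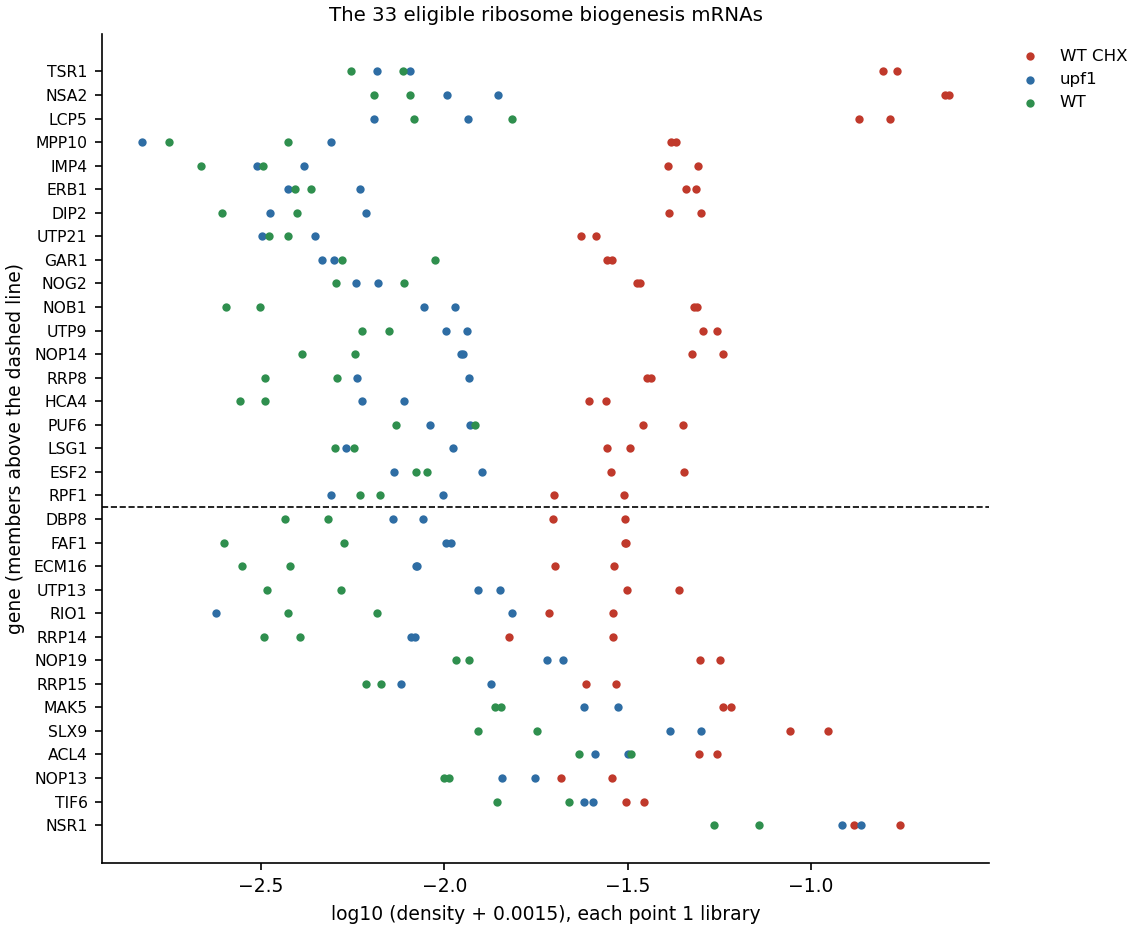
Density of the 33 eligible ribosome biogenesis mRNAs in the 6 libraries with Dicer, as log10 of density plus 0.0015, with 1 point per library and genes ordered by the ratio of the rule; the 19 above the dashed line are members. WT CHX points lie right of the upf1 points in every member, since the members were chosen on these values. The gap narrows down the plot to NSR1 at a log2 ratio of 0.24.

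The list was also followed outside the eligible set, whose limits include the WT CHX floor and the level without Dicer, so these values are not independent of the rule. Of 113 such ribosome biogenesis mRNAs 59 were called higher in WT CHX than in upf1 and 1 lower (limma, adjusted p at most 0.05). Over all 7879 features tested 24% were called higher and 21.8% lower in this comparison. The median log2 fold change of the 113 was 1.26, or 0.83 when libraries were scaled on the median mRNA, while that of all mRNAs was 0.47, or 0.06. In upf1 against WT 23 of the 113 were higher, where 57.7% of all features were, and their median was 0.42, or -0.52 with mRNA-median scaling.

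Factors of translation itself also appeared. Of 20 eligible translation factors 8 were members (40.0%), namely HCR1, TIF4631, GCD1, TIF34, CAF20, TIF1, PAB1 and TIF5. HCR1 (eIF3j) had 0.0258 and 0.0216 in WT CHX, 0.00186 and 0.000836 in upf1, and 0.00477 and 0.00703 in WT, and was thus lowest in upf1. TIF4631, a gene for the eIF4G scaffold, had 0.0541 and 0.0352 in WT CHX, 0.00734 and 0.00628 in upf1, and 0.00695 and 0.00872 in WT. The eIF3 subunit gene TIF34 had 0.0757 and 0.0461 in WT CHX, 0.0159 and 0.00781 in upf1, and 0.00604 and 0.00493 in WT. Both WT CHX values were above both upf1 values in these 3 genes, as in all 200 members, which were chosen on these values. The same held in 3402 of all 7879 features tested. Of the 3 genes, upf1 overlapped WT in TIF4631 alone. Outside the eligible set, with the same limit, 12 of 20 translation factors were called higher in WT CHX than in upf1, against 24% of all features. Their median log2 fold change was 1.18, or 0.72 with mRNA-median scaling.

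Ribosomal protein genes were members about as often as eligible mRNAs in general. Of 19 eligible cytosolic ribosomal protein genes 3 were members (15.8%, against 17.8% of all eligible mRNAs), RPL23A, RPS27A and RPS21B, and of 11 mitochondrial ones 0. Copies of such genes can be nearly identical, and no source used here gives the handling of reads with several sites, so these values are uncertain. The Pol I factor RRN3 and the Pol I subunit gene RPA43 were the 2 members among 8 eligible polymerase I and III genes. DED81, for asparaginyl-tRNA synthetase, was the single member among 7 synthetase genes.

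Of 15 eligible genes of RNA decay 5 were members. DHH1 (chromosome 1, 2765451 to 2766983, plus strand), a helicase that promotes decapping, had 0.172 and 0.135 in WT CHX, 0.0138 and 0.0133 in upf1, and 0.0108 and 0.00522 in WT. The exosome subunit gene SKI6 had 0.0243 and 0.0263 in WT CHX and 0.00613 and 0.000917 in upf1. AIR1 and TRF5, of the TRAMP complex that tags nuclear RNA for decay, and CCR4, the main deadenylase, had log2 ratios of 2.40, 1.77 and 1.74.

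Vesicle transport gave 7 of 20 eligible genes and the densest member of all. GLO3 (chromosome 1, 2876103 to 2877560, minus strand), a GTPase-activating protein of retrograde Golgi transport, had 0.782 and 0.628 in WT CHX, 0.104 and 0.0844 in upf1, and 0.0176 and 0.0227 in WT. All 3 groups were apart, and in dcr1 CHX it had 0.00472 and 0.00441. COP1, a coatomer subunit that works with it, had 0.0636 and 0.0514 in WT CHX, 0.00376 and 0.00451 in upf1, and 0.00295 and 0.00316 in WT. The coat and tether genes SEC31 (log2 ratio 2.67), SEC6 (2.56), SFB3 and SEC16 and the exchange factor gene GEA2 completed the group.

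Among the small lists, 4 of 6 eligible nuclear pore and transport genes were members (KAP123, LOS1, NUP57 and NUP1), 3 of 5 glycolysis genes (PFK1, PFK2 and HXK2) and 4 of 9 proteasome genes (RPN6, RPN1, BLM10 and PRE5). KAP123, an importin for ribosomal proteins, had 0.0898 and 0.0876 in WT CHX, 0.0106 and 0.0104 in upf1, and 0.00435 and 0.00376 in WT. PFK1 and PFK2, the subunits of phosphofructokinase, had means of 0.0490 and 0.0541 in WT CHX and 0.00947 and 0.0116 in upf1. The replicates of PRE5 were far apart in WT CHX, with 0.0442 and 0.00927 in WT CHX and 0.00754 and 0.00387 in upf1. At the other end were nutrient transporters (2 of 17, GNP1 and VHT1), cell wall and secretory genes (1 of 15, ANP1) and the respiratory chain (1 of 12, COX9). Sterol synthesis had 3 of 11 (ERG5, ERG6 and ARE1) and cyclins 1 of 2 (PCL8), and neither the 2 heat shock nor the 2 histone genes were members. Together the lists named 64 members, and these shares are descriptions of few genes that were not tested.

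**Figure D3:**
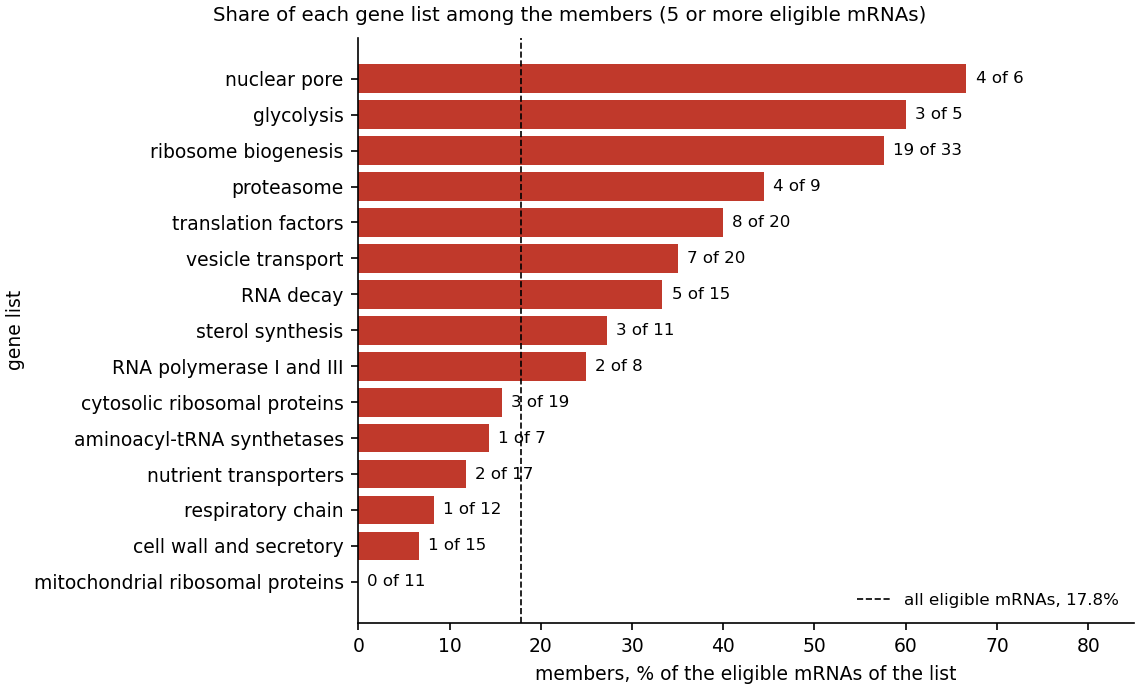
Members as a percentage of the eligible mRNAs of each gene list with at least 5 eligible mRNAs, with the counts beside the bars and the share over all eligible mRNAs (17.8%) as a dashed line. Ribosome biogenesis has 19 of 33, and mitochondrial ribosomal proteins have 0 of 11.

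Regulators outside those lists were also at the steep end. MSN2 (chromosome 1, 2546267 to 2548735, minus strand), a zinc-finger activator of the general stress response, had 0.118 in each WT CHX library, 0.00429 and 0.00385 in upf1, and 0.00353 and 0.00231 in WT. RXT3, of a histone deacetylase complex, had 0.177 and 0.114 in WT CHX, 0.00615 and 0.00710 in upf1, and 0.00563 and 0.00730 in WT. EDE1, a scaffold of endocytic sites, had 0.104 and 0.0892 in WT CHX, 0.00604 and 0.00796 in upf1, and 0.00496 and 0.00570 in WT. In MSN2 and EDE1 the groups were apart, and in RXT3 upf1 lay within the WT values. TMA46, a ribosome-associated protein gene, and TAF7, of the transcription factor TFIID, had log2 ratios of 3.42 and 3.32. The upf1 and WT values overlapped in TMA46 and lay next to each other in TAF7, at 0.00269 and 0.00518 in upf1 and 0.00690 and 0.00523 in WT.

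**Figure D4:**
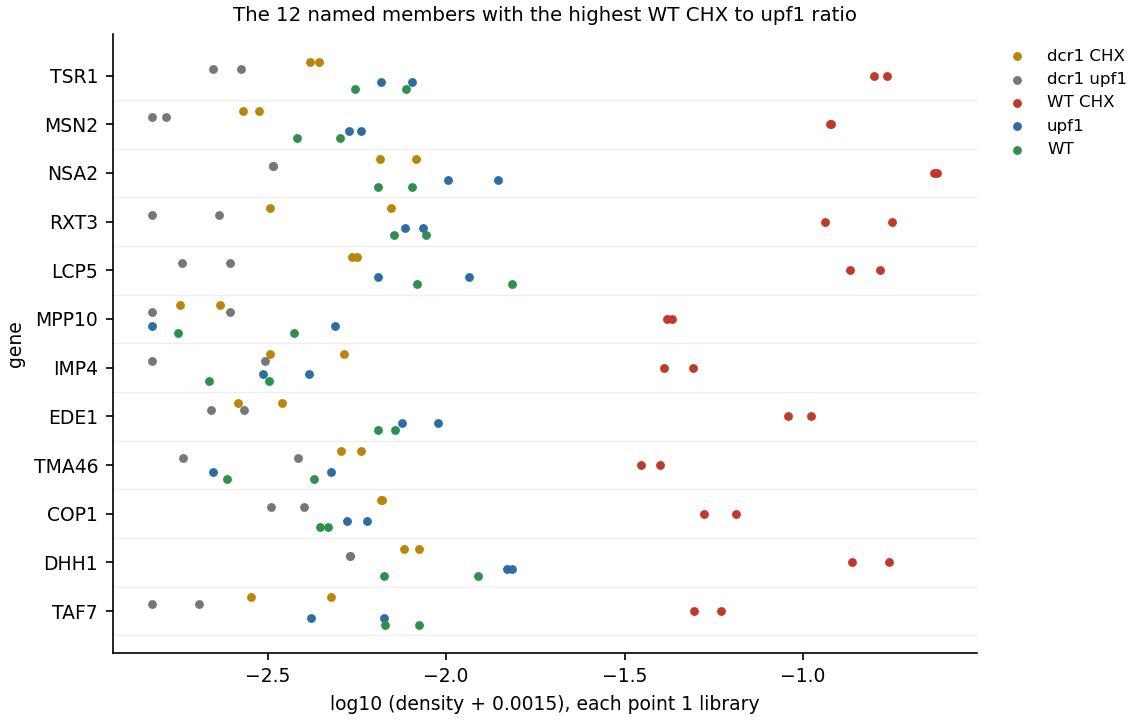
Density of the 12 members with a symbol and the highest ratio of WT CHX to upf1, as log10 of density plus 0.0015, with 1 point per library and 5 groups. The WT CHX points stand alone at the right, while upf1 and WT points lie close together, as for TSR1 at 0.00506 and 0.00654 in upf1 and 0.00406 and 0.00621 in WT.

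The densest members with a symbol in WT CHX beside GLO3 and NSA2 were PRS3 (ribose-phosphate pyrophosphokinase), TFG2 (a TFIIF subunit) and TIF1 (the helicase eIF4A), with means of 0.206, 0.204 and 0.171. After them came TSR1 at 0.164, NSI1, which acts in rDNA silencing, at 0.158, then DHH1 and LCP5, and SRO9, an RNA-binding protein gene, at 0.145. PRS3, TFG2, TIF1 and GLO3 were also among the 5 densest members in untreated WT, with COX9, a cytochrome oxidase subunit gene, in front at 0.0371 and 0.0187. TIF1 can have a near-identical copy that shares its reads, so its values are uncertain. The sparsest in WT were RLF2 (a chromatin assembly factor), MET4 (an activator of sulfur metabolism), ARE1 (sterol esterification), SRF1 and CMR2. RLF2 had 0.0320 and 0.0300 in WT CHX, 0.000757 and 0.00306 in upf1, and 0.000243 and 0 in WT.

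Against untreated WT, all 200 members were called higher in WT CHX, in a comparison where 77.1% of all features were higher and 0.165% lower, and since WT CHX chose the members nothing is read from that count. The median fold change on the log2 scale was 2.94 in members and 1.51 over all features, or 1.36 and -0.06 with mRNA-median scaling. VHT1, a biotin transporter gene, was raised in both conditions, with 0.0958 and 0.0875 in WT CHX, 0.0260 and 0.0248 in upf1, and 0.00134 and 0.00158 in WT.

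In upf1 against WT most members differed by less than 2-fold. With 0.0015 added to both densities, as in the rule, the upf1 mean was within 2-fold of WT in 154 members. With it, the upf1 mean was over 2-fold above WT in 44 members and over 2-fold below WT in 2. The addition shrinks the ratios of sparse genes. On the densities alone more members were over 2-fold apart in both directions, such as GEA2 at 2.07 times WT and CAT5 at 0.408 times. By limma 49 were called higher and 2 lower, where 57.7% of all features were called higher and 0.622% lower, and the members' low upf1 values were part of their choice. Their median log2 fold change of 0.57 was under the 1.20 of all features, and with mRNA-median scaling it turned to -0.50 against 0.09. VHT1 had the largest value, 3.21 (SE 0.24), followed by NCAS_0E02180 (chromosome 5) with 2.21 (SE 0.25) and GLO3 with 2.15 (SE 0.21). The 2 members called lower were HCR1, at -1.40 (SE 0.37), and CAT5, a gene of coenzyme Q synthesis, at -0.96 (SE 0.29). CAT5 had 0.0377 and 0.0385 in WT CHX, 0.00285 and 0.00256 in upf1, and 0.00610 and 0.00719 in WT. CAT5 and NCAS_0E02180 were chosen for mention after their values were seen.

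Small RNA over the members was sparse without Dicer. The rule set part of this, since it asked for a minimum density in WT CHX and removed the genes densest in the libraries without Dicer. Summed density was 0.783 ± 0.0950 in dcr1 CHX, which was 6.63% of WT CHX, and 0.303 ± 0.0121 in dcr1 upf1, which was 15.6% of upf1 (SD, n = 2 each). Over the other eligible mRNAs these shares were 5.37% and 1.61%. The share left in dcr1 upf1 was thus larger for the members, whose upf1 values were low by choice. Per gene, the median left in dcr1 CHX was 6.18% of WT CHX, with a range of 0% to 64.8%, against a median of 5.23% over the other eligible mRNAs. In dcr1 upf1 the median was 11.2% of upf1 over the 199 members with reads in upf1, against 2.85% over the other eligible mRNAs. The range in these members was 0% to 239%, so some were denser in dcr1 upf1 than in upf1. The dcr1 upf1 mean was above 50% of upf1 in 21 of the 199, and in 24 of the 922 others. These shares rest on upf1 values that were low by choice.

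In dcr1 CHX against WT CHX 199 members were called lower, where 87.1% of all features were lower and 0.608% higher. Their median was -3.32 on the log2 scale, and -0.62 after mRNA-median scaling. The exception was FAS1, for fatty acid synthase, with 0.0121 and 0.0176 in dcr1 CHX and 0.0241 and 0.0217 in WT CHX. ERG6, a sterol methyltransferase gene, and PET20, for a mitochondrial protein, kept 47.8% and 44.6%, while GLO3 kept 0.647% and TSR1 1.70%. In dcr1 upf1 against upf1 169 members were called lower, where 83.9% of all features were, with a median of -1.76, which turned to 0.27 with mRNA-median scaling. CAT5 was called higher there (0.285% of all features), with 0.00615 and 0.00395 in dcr1 upf1 and 0.00285 and 0.00256 in upf1. FAS1 was chosen for mention after its values were seen.

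The libraries without Dicer gave a comparison of cycloheximide with UPF1 loss that had no part in the contrast of the rule, although their mean level had removed the 200 densest genes. Reads were few, with a median of 17 per member over both dcr1 CHX libraries and 8 over both dcr1 upf1 libraries. Summed density in dcr1 CHX was 2.59 times that in dcr1 upf1 (2.30 to 2.89 over the replicate pairs) for the members and 1.84 times (1.66 to 2.03) for the other eligible mRNAs. The dcr1 CHX mean was above the dcr1 upf1 mean in 186 of the 200 members, in 771 of the 922 other eligible mRNAs and in 4401 of all 5600 mRNAs, so most genes went the same way. The median log2 ratio of the means was 0.84 over all 200 members, 0.52 over the other eligible mRNAs and 0.46 over all mRNAs. No test of that difference was made. Both groups of eligible mRNAs had a median density of 0.00273 in dcr1 CHX, and in dcr1 upf1 it was 0.000811 for the members and 0.00130 for the others.

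**Figure D5:**
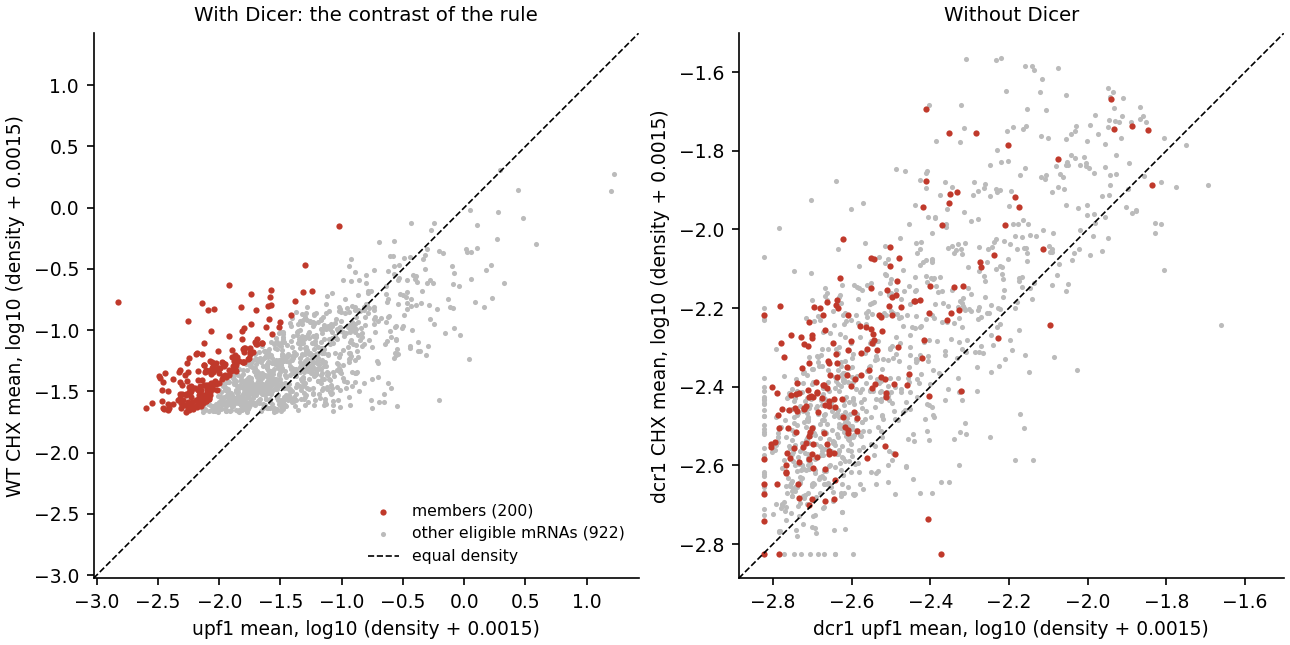
Mean density of each eligible mRNA as log10 of density plus 0.0015, WT CHX against upf1 on the left and dcr1 CHX against dcr1 upf1 on the right; members are red, the other 922 grey, and the dashed line marks equal density. On the left the edge of the red points is the threshold of the rule, and on the right 186 of 200 members and 771 of the 922 others lie above the line, mixed with each other.

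Of the 200 members 124 were dense enough to be tested without Dicer, and 5 rose in dcr1 CHX against dcr1 upf1 while 0 fell. That is near the background, since 4.66% of all 3625 features tested rose and 0.0276% fell. At an unadjusted p of 0.05 limma had 61 of the 124 higher and 0 lower, and 1040 of the 3625 higher. With mRNA-median scaling these became 17 members higher and 3 lower, and 294 features higher. The median log2 fold change of the 124 then fell from 0.95 to 0.40, and that of all 3625 from 0.66 to 0.01. On the recovered reads limma voom called 57 members and 862 of all features higher. The members too sparse to test are in none of these counts, and a member could pass the filter through its dcr1 CHX values alone. GCD1, a subunit of the exchange factor eIF2B, had 0.0210 and 0.0165 in dcr1 CHX and 0.00173 and 0.00302 in dcr1 upf1 (log2 2.41, SE 0.35, limma adjusted p = 0.0206). PET20 had 0.0130 and 0.0192 in dcr1 CHX and 0.00271 and 0.00315 in dcr1 upf1 (log2 1.98, SE 0.34, limma adjusted p = 0.0360). CTT1, the cytosolic catalase, had 0.0107 and 0.0129 in dcr1 CHX and 0.00249 and 0.00228 in dcr1 upf1 (log2 1.79, SE 0.32, limma adjusted p = 0.0390).

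SRO9 and RFU1, an inhibitor of a deubiquitinating enzyme, were the other members that rose. SRO9 had 0.00622 and 0.00581 in dcr1 CHX and 0.000725 and 0.000964 in dcr1 upf1 (log2 1.70, SE 0.34, limma adjusted p = 0.0487). RFU1 had 0.00511 and 0.00398 in dcr1 CHX and no reads in dcr1 upf1, and its fitted value depends on the pseudocount (limma adjusted p = 0.0461). In each of these 5 genes both dcr1 CHX values were above both dcr1 upf1 values. That also held in 146 of all 200 members and in 2095 of the 3625 features tested. All 5 calls ended with mRNA-median scaling, where 0 members were called, and without dcr1 CHX replicate 2. Without dcr1 CHX replicate 1 the calls of the 4 genes that could still be tested ended too. Of the steepest ribosome biogenesis members, MPP10 and ERB1 were too sparse to test. NSA2 and TSR1 did not pass, with NSA2 at a log2 of 1.18 (SE 0.34, limma adjusted p = 0.0925) and TSR1 at 0.82 (SE 0.38, limma adjusted p = 0.199).

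The members were longer than the other eligible mRNAs, with a median of 1586 nt against 1169 nt, and their share of the eligible mRNAs was larger at greater length, from 9.93% among the 282 shortest eligible mRNAs (up to 789 nt) to 27.0% among the 281 longest (from 1824 nt). A convergent neighbour beyond 200 nt was present in 35% of members and 35.4% of the others, and a divergent neighbour in 45.5% and 56.0%. Members were spread over all 10 chromosomes, from 12.1% of eligible mRNAs on chromosome 9 to 24.2% on chromosome 5. Of 341 pairs of adjacent eligible mRNAs 12 were both members (3.52%) and 110 held 1 member, and clustering was not tested. Among the 12 were the divergent NSA2 and LCP5, the tandem ribosome biogenesis genes NOG2 and ESF2 on chromosome 1, and the convergent NCAS_0J01440 and TSR1.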

How the data were processed

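The authors' deposited table holds a normalised coverage signal, reads per nucleotide of each feature, scaled to 22 to 23 nt S. pombe centromeric small RNAs from 1 µg of RNA added to 25 µg of sample, per the labels' protocols. Bowtie, Trim Galore and, for S. pombe, the build ASM294v2 are listed in the submitters' processing notes. No source used here gives the N. castellii build, the read lengths counted or the handling of reads with several sites. Coordinates are those of the deposited table. Density times length gave whole multiples of 1 step per library for 100% of entries (tolerance 0.001), from which reads were recovered. The 5 group means were not used, nor were 92 control sequences and 271 repeated intervals, which left 8407 features. Symbols came from a RefSeq gene table, where all 200 members were found.

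limma 3.58.1 (R 4.3.3) was fitted with a variance trend to log2(density + 0.00145), the pseudocount being the median over libraries of the tenth percentile of non-zero densities. Features with a mean below it were left out, and Benjamini-Hochberg adjusted p-values, two-sided at 0.05, ran over all features tested. Fold changes on this scale understate those of sparse genes. The 6 libraries with Dicer were fitted together, the 4 without Dicer together, and all 10 for the Dicer comparisons. With 2 against 2 an exact permutation test cannot go below p = 0.333, so none is given. Intervals between replicate pairs are the lowest and highest ratios. Replicates measure the spread between cultures as far as the labels say. The procedure was also run on simulated data with changes placed only in the denser features, so that run says nothing about sparse members. Alternatives changed the pseudocount, filter, scaling, libraries fitted, replicate block, single libraries and read counts by limma voom.

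The members, the 18 gene lists (matched by symbol) and the tests were chosen with earlier results of these data known. Named were members with a symbol that were the 12 highest by ratio, the 10 densest in WT CHX, the 5 densest and 5 sparsest in WT, next to the threshold, in a list (up to 4 in full), or the 5 largest changes called without Dicer, and the 2 steepest without a symbol. P-values of single members are printed only for the comparison without Dicer. The other comparisons involve WT CHX or upf1, which chose the members, so members called there are a description and not a test. No sequences are shown.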

Additional observations from a re-analysis of the deposited data

How the results depend on the processing

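Scaling on the median mRNA in place of the spike-in had the widest effect, since it moved the median of all features from 1.51 to -0.06 in WT CHX against WT, from 1.20 to 0.09 in upf1 against WT, and from -3.06 to -0.67 and -3.13 to -1.03 in the Dicer comparisons. Under it the features called higher in WT CHX against upf1 numbered 920, against 1891, and 866 to 1215 without 1 library, WT CHX replicate 1 giving the lowest. In WT CHX against WT it called 116 members and 854 features higher. In upf1 against WT it called 3 members and 2070 features higher, and 43 members and 954 features lower, of 7879 features tested. There TFG2 (-0.26), SCH9 (-0.11), NSI1 (-0.23), KAP123 (-0.0080), NSA2 (-0.45), NUP1 (-0.13), SRO9 (-0.50), CTT1 (-0.36) and SEC31 (-0.31) turned negative. In dcr1 CHX against WT CHX it called 62 members and 2921 features lower. In dcr1 upf1 against upf1 it called 15 members and 3607 features lower, and 58 members and 1336 features higher. Each of these 2 Dicer comparisons tested 7727 features.

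In upf1 against WT, members higher numbered 32 with only the groups compared, 23 with a pseudocount 10 times larger and 24 to 39 without 1 library. Members lower numbered 1 with only the groups compared and by limma voom, 0 with the larger pseudocount and 0 to 2 without 1 library. CAT5 in dcr1 upf1 against upf1 was the single member called higher, and 0 were called with no filter, only the groups compared, the larger pseudocount, limma voom or the replicate block, and 0 to 1 without 1 library. Without Dicer, where 5 members and 169 features were higher, all 10 libraries gave 43 and 761, mRNA-median scaling 0 and 27, no filter 0 and 0, limma voom 57 and 862, and the pseudocount 10 times smaller 2 and 95, while the larger one gave 1 member. Leaving out 1 library gave 0 to 10 members and 0 to 300 features, with 0 without either dcr1 CHX library. At an unadjusted p of 0.05 by limma, 61 members were higher and 0 lower, and 17 were higher and 3 lower with mRNA-median scaling. A floor of 0.05 kept 73 of the members and 9 ribosome biogenesis genes. The replicate numbers did not pair the libraries, since correlations of replicate differences were -0.0374 to 0.0230 over 4848 features; with the replicate block 200, 200, 43 and 5 members were called higher in WT CHX against upf1, WT CHX against WT, upf1 against WT and dcr1 CHX against dcr1 upf1, and RFU1 (limma adjusted p = 0.0528) and SRO9 (limma adjusted p = 0.0578) lost their calls. The causes of these changes were not tested. Depth limits the libraries without Dicer most, where 6 members had 0 reads in dcr1 upf1.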
